A study of Mus musculus with 2 samples.

Results

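The globin genes expressed in embryonic and adult mouse red cells were followed in neural tube tissue at embryonic day 11.5. The set was 7 genes of 43346 annotated genes in the files, taken by symbol with earlier results of these data known. It held the beta-type genes Hbb-y, Hbb-bh1, Hbb-bt and Hbb-bs, and the alpha-type genes Hba-x, Hba-a1 and Hba-a2. All 7 were found. Data that the labels title total RNA-seq were available for 1 group of 2 libraries, each from neural tube of B6NCrl embryos with both sexes pooled. Replicate 1 came from 109 embryos and replicate 2 from 88 embryos, and the expected counts over annotated genes totalled 26056000 and 27702671. The labels describe the embryos as healthy and name no treatment, other age or other tissue, so no contrast of conditions was possible. The age series that would show a switch over time was not analysed here, and embryonic and adult-type globins were compared within each library.

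Hemoglobin is built from paired alpha-type and beta-type globin chains, each holding a heme group. In the mouse the alpha-type genes and the beta-type genes lie in separate clusters, and each cluster holds embryonic genes ahead of adult-type genes in the direction of transcription. Primitive red cells, which arise in the yolk sac, carry the embryonic chains and also adult-type alpha chains, while definitive red cells from the fetal liver carry the adult-type chains. A change from embryonic to adult-type globins is called globin switching.

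The embryonic genes were diverged in sequence from the adult-type genes, whereas the adult-type copies were nearly the same, which bears on which levels can be read gene by gene. The first 60 coding bases show this. They are given 5′ to 3′ on the strand of the gene, from the GENCODE M21 transcripts on GRCm38 (the build of mm10), with capitals where a beta-type gene differs from Hbb-bt or an alpha-type gene from Hba-a2.
Hbb-y (chr7:103853093-103853152, minus strand, exon 1): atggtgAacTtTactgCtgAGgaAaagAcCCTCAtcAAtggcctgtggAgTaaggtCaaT
Hbb-bh1 (chr7:103843051-103843110, minus strand, exon 1): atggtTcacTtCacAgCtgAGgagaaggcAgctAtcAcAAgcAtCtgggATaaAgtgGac
Hbb-bt (chr7:103813810-103813869, minus strand, exon 1): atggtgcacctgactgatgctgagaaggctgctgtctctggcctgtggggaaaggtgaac
Hbb-bs (chr7:103827816-103827875, minus strand, exon 1): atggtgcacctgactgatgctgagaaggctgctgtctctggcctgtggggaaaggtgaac
Hba-x (chr11:32276664-32276723, plus strand, exon 1): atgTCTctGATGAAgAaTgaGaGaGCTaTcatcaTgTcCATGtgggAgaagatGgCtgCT
Hba-a1 (chr11:32283707-32283766, plus strand, exon 1): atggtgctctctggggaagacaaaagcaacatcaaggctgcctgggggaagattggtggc
Hba-a2 (chr11:32296524-32296583, plus strand, exon 1): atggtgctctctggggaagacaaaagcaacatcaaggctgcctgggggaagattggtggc

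In this stretch Hbb-y differed from Hbb-bt at 19 bases, Hbb-bh1 at 18 bases and Hbb-bs at 0 bases, while Hba-x differed from Hba-a2 at 28 bases and Hba-a1 at 0 bases. Over all 441 coding bases, Hbb-y and Hbb-bt were 74.2% identical, Hbb-bh1 and Hbb-bt 73.7%, and the 2 embryonic beta-type genes 76.4%. Over 426 coding bases Hba-x and Hba-a2 were 61.5% identical. The adult-type pairs each differed at 1 coding base, an identity of 99.8%. Counting from 1 at the A of the start codon, the change from Hbb-bt to Hbb-bs was T417C and the change from Hba-a1 to Hba-a2 was C381T. These stretches of exon 3, with that base in capitals, hold the whole coding difference between the copies.
Hbb-bt (chr7:103812669-103812697, minus strand): gtggctggagtggcTgctgccctggctca
Hbb-bs (chr7:103826678-103826706, minus strand): gtggctggagtggcCgctgccctggctca
Hba-a1 (chr11:32284329-32284357, plus strand): catgcctctctggaCaaattccttgcctc
Hba-a2 (chr11:32297146-32297174, plus strand): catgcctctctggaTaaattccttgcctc

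Sharing was also measured over whole transcripts, coding part included. Of the 100-base windows of the main Hba-a2 transcript, 74.5% occurred unchanged in another gene of the family, and of those of Hba-a1 56.5%. The values were 54.8% for Hbb-bt and 62.6% for Hbb-bs, against 0% for Hbb-y, Hbb-bh1 and Hba-x. The deposited uncertainty of each count followed the same line. The posterior SD of the count, which measures how firmly reads were assigned, was at most 0.03 reads for Hbb-y and was 0 reads for Hbb-bh1 and Hba-x in both libraries. It was 154 and 157 reads for each of Hba-a1 and Hba-a2 and 37.4 and 36.9 reads for each of Hbb-bt and Hbb-bs. For Hbb-bs that came to 4.43% and 4.76% of its count. Sums over a pair of copies are therefore given first below, and the split within a pair is a value of the authors' read assignment.

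The embryonic gene Hbb-y, which encodes the epsilon-like beta chain of primitive red cells, gave the highest level of the family. Levels are in TPM, a share of transcripts corrected for transcript length and scaled to a common total in each library. Hbb-y (ENSMUSG00000052187.3, chr7:103851749-103853216) stood at 6719 TPM in replicate 1 and 6729 TPM in replicate 2, from 65697 and 67881 expected counts. In deposited TPM the libraries were close to each other, with a mean of 6724 ± 6.55 TPM (SD, n = 2, as for all means below). The total behind TPM includes the spike-in RNAs, which held 13.2% of it in replicate 1 and 11.8% in replicate 2. Each SD of TPM therefore depends on that share too. On gene counts scaled by edgeR's TMM factors, Hbb-y in replicate 2 stood at 0.972-fold of replicate 1. Hbb-y ranked 2 among 21474 protein-coding genes, below the tubulin gene Tuba1a at 7407 ± 382 TPM. Below Hbb-y came the actin gene Actb at 5591 ± 18.0 TPM and the mitochondrial genes mt-Atp6 at 5568 ± 80.4 TPM and mt-Atp8 at 4810 ± 100.4 TPM. With a single condition, genes that share a pattern across conditions could not be sought, and these neighbours in level are named instead.

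Hbb-bh1, the other embryonic beta-type gene (ENSMUSG00000052217.5, chr7:103841637-103843164), had 1580 TPM in replicate 1 and 1649 TPM in replicate 2, from 14160 and 15243 expected counts. Its level lay below that of Hbb-y in each library. Hbb-y exceeded Hbb-bh1 by 4.25-fold in replicate 1 and 4.08-fold in replicate 2, a mean of 4.17 ± 0.121. Both genes had 1 transcript model in the files, so neither level rests on a split between models.

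The adult-type beta genes were far lower. Summed over Hbb-bt and Hbb-bs, the level was 643 TPM in replicate 1 and 605 TPM in replicate 2, from 6603 and 6446 expected counts. Embryonic beta-type transcripts, at 8300 and 8377 TPM, exceeded this sum 12.9-fold in replicate 1 and 13.8-fold in replicate 2. Hbb-bt (ENSMUSG00000073940.3, chr7:103812524-103813996) was given 548 and 523 TPM and Hbb-bs (ENSMUSG00000052305.5, chr7:103826534-103828096) 95.2 and 82.4 TPM. Hbb-bt thus took 85.2% and 86.4% of the adult-type beta level as assigned. Between the highest and the lowest gene of the family, Hbb-y and Hbb-bs, the means differed 75.7-fold. Most of the Hbb-bs level was assigned to a model that keeps an intron. Counting protein-coding models alone, an alternative added after the shares of the models had been seen, Hbb-bs had 25.1 and 26.7 TPM, the gap to Hbb-y was 259.8-fold and Hbb-bt exceeded Hbb-bs 20.7-fold in place of 6.03-fold.

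The alpha-type genes showed the opposite order, with the adult type ahead. Hba-x, the zeta-like embryonic alpha gene (ENSMUSG00000055609.4, chr11:32276400-32278116), had 1892 TPM in replicate 1 and 1944 TPM in replicate 2, from 22503 and 23988 expected counts. Hba-a1 and Hba-a2 together had 5393 and 5388 TPM, from 42797 and 43871 expected counts. The adult-type sum exceeded Hba-x 2.85-fold in replicate 1 and 2.77-fold in replicate 2. As assigned, Hba-a2 (ENSMUSG00000069917.7, chr11:32296489-32297298) had 3662 and 3675 TPM and Hba-a1 (ENSMUSG00000069919.7, chr11:32283511-32284465) had 1731 and 1713 TPM, a ratio of 2.12 and 2.15. On protein-coding models alone the means of Hba-a2 and Hba-a1 differed 7.33-fold. The ratio joins genes with 1 coding difference and belongs to the read assignment as well as to the tissue.

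**Figure D1:**
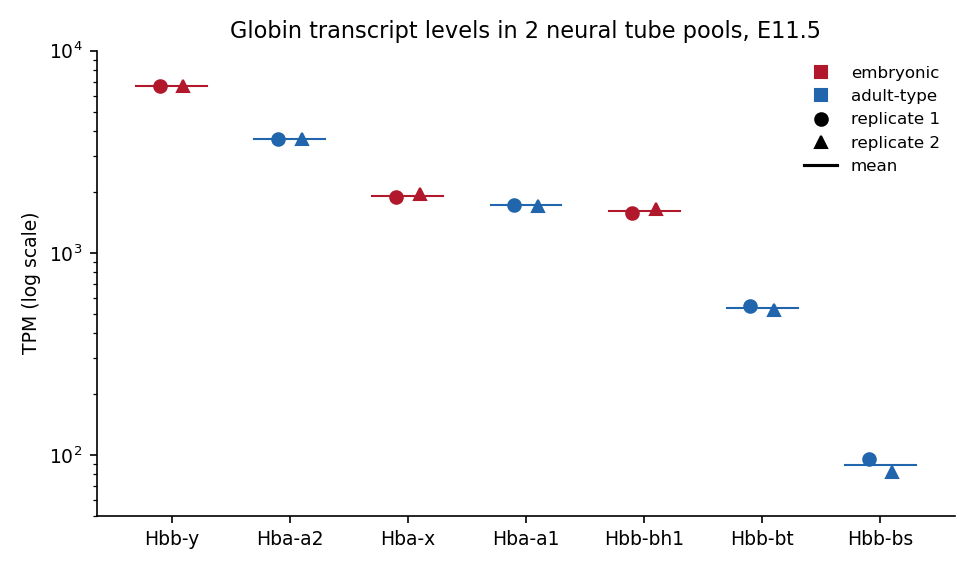
TPM of the 7 globin genes on a log axis, ordered by mean; circles are replicate 1, triangles replicate 2 and lines the mean of both, red for embryonic and blue for adult-type genes. Hbb-y stood highest at 6724 TPM and Hbb-bs lowest at 88.8 TPM, and with all transcript models counted no 2 neighbouring genes overlapped between libraries.

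With all transcript models of a gene counted, the order of the levels was the same in both libraries: Hbb-y, Hba-a2, Hba-x, Hba-a1, Hbb-bh1, Hbb-bt and Hbb-bs. The lowest library of each gene stood above the highest library of the next in every neighbouring pair. The closest pairs were Hba-a1 over Hbb-bh1, whose means differed 1.07-fold, and Hba-x over Hba-a1, whose means differed 1.11-fold. The place of Hba-a1 rested on its retained-intron model. On protein-coding models alone Hba-a1 had 537.8 and 463.7 TPM and fell from place 4 to place 6, the libraries of Hba-a1 and Hbb-bt overlapped, Hbb-bh1 exceeded Hba-a1 3.22-fold and Hba-x exceeded it 3.83-fold. The other 6 genes kept their order among themselves. These orders compare genes measured in the same 2 libraries, which are too few for a test, so no p-value is given for any of them.

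As shares, the beta-type transcripts were mostly embryonic and the alpha-type transcripts mostly adult-type. Hbb-y and Hbb-bh1 made up 92.8% of beta-type TPM in replicate 1 and 93.3% in replicate 2, a mean of 93.0% ± 0.320. Hbb-y alone made up 75.0% ± 0.163 of it. Hba-x made up 26.0% of alpha-type TPM in replicate 1 and 26.5% in replicate 2, a mean of 26.2% ± 0.385. The embryonic share thus differed between the clusters by far more than between the libraries. Over all 7 genes the embryonic share was 63.0% ± 0.324.

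**Figure D2:**
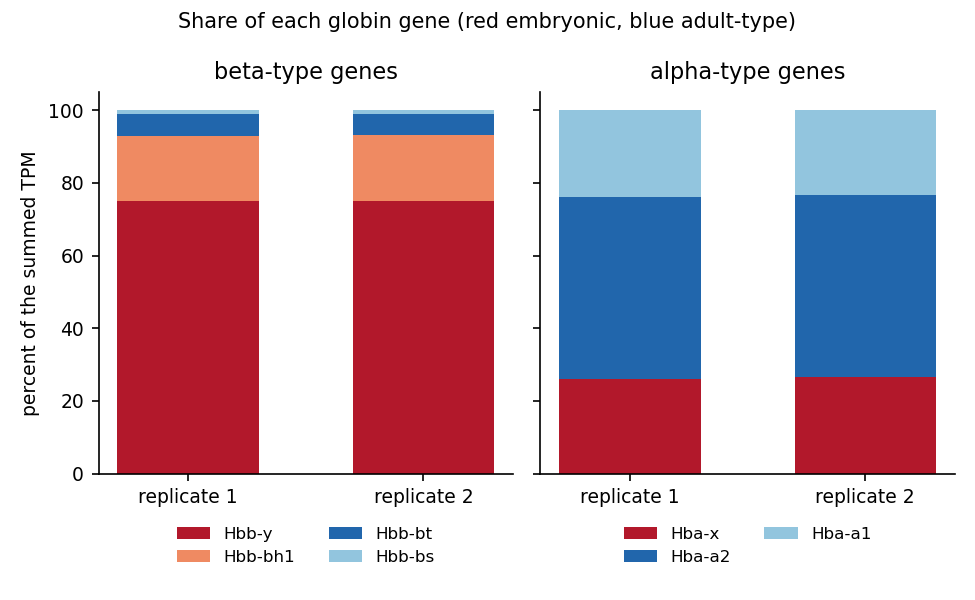
Percent of the summed TPM held by each gene, for the beta-type genes and the alpha-type genes in replicates 1 and 2; the axis starts at 0, with red shades for embryonic and blue shades for adult-type genes. Red fills 93.0% of the beta-type bars and 26.2% of the alpha-type bars on average.

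In counts without length correction, the embryonic part was 79857 of 86460 beta-type counts in replicate 1, or 92.4% (Wilson 95% interval 92.2% to 92.5%), and 83124 of 89570 in replicate 2, or 92.8% (92.6% to 93.0%). For the alpha-type genes it was 22503 of 65300 counts, or 34.5% (34.1% to 34.8%), in replicate 1 and 23988 of 67859 counts, or 35.4% (35.0% to 35.7%), in replicate 2. These intervals hold counting error alone and take every count as independent. Several reads may stem from the same molecule where no molecular identifier was used, so the intervals may be too narrow even for that error. The alpha-type share depends on the lengths used. The main Hba-x model is 801 bases long and begins 200 bases ahead of the RefSeq start of the gene. With the counts kept, the copies pooled and each model given the RefSeq ends, the embryonic share was 33.1% for the alpha-type and 92.8% for the beta-type genes, an alternative added after the model ends had been seen. The adult type stayed ahead among the alpha-type genes under every setting run, and the embryonic type among the beta-type genes.

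Alpha-type and beta-type transcripts summed to similar levels. The alpha-type sum was 7284 and 7333 TPM and the beta-type sum 8943 and 8983 TPM, so the ratio of alpha-type to beta-type was 0.815 in replicate 1 and 0.816 in replicate 2. Within the adult type the loci were far apart, since Hba-a1 and Hba-a2 exceeded Hbb-bt and Hbb-bs 8.39-fold and 8.90-fold. Together the 7 genes held 1.87% and 1.85% of the TPM of all genes and 0.582% and 0.568% of their expected counts. In bulk tissue, fewer red cells and less globin RNA per red cell cannot be told apart.

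Along the clusters, levels did not follow distance in a single way. In the beta cluster, counted in kilobases from the start of Hbb-y in the direction of transcription, Hbb-bh1 lay at 10.1 kb, Hbb-bs at 25.1 kb and Hbb-bt at 39.2 kb, so the last gene stood above the gene before it as assigned. Between them lay Hbb-bh2, a protein-coding gene at 12.7 kb, with 0 counts throughout; the upper limit, taken as the level of 3 counts, was 0.4998 TPM in replicate 1 and 0.4844 TPM in replicate 2. The pseudogene Hbb-bh3 also had 0 counts, with limits of 0.854 and 0.827 TPM. The pseudogene Hbb-bh0, a model of 129 bases, was listed at 11.5 and 13.0 TPM from only 6 and 7 counts. In the alpha cluster, Hba-a1 lay at 7.1 kb and Hba-a2 at 20.1 kb from Hba-x. The theta-like genes Hbq1b and Hbq1a stood at 3.51 ± 0.0424 TPM and 0.170 ± 0.240 TPM, the latter from 0 and 3 counts. Their counts in replicate 2 were fractional, 30.94 and 3.06, so the split between them also rests on the read assignment.

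**Figure D3:**
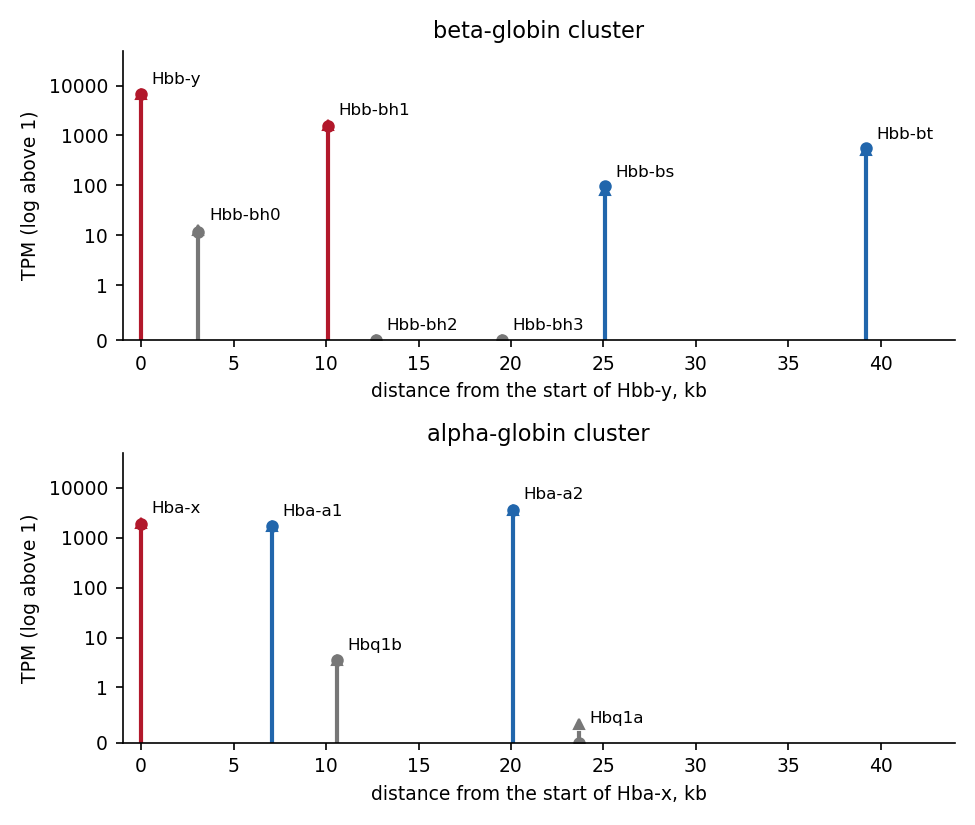
TPM (log axis above 1, linear below) of the genes of each globin cluster against the distance of their start from the first embryonic gene, in kilobases; circles are replicate 1 and triangles replicate 2, with red for embryonic, blue for adult-type and grey for other genes. Hbb-bh2 and Hbb-bh3, at 0 counts, lie between Hbb-bh1 and Hbb-bs.

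The other members of the wider globin family were low. Of 8 further globins and globin pseudogenes 4 were detected, that is, at 1 TPM or more in both libraries, and their median was 0.815 TPM, against a median of 4.40 TPM over all protein-coding genes, of which 59.9% were detected. Cygb, which encodes cytoglobin, had 2.08 ± 0.368 TPM and Mb, the muscle myoglobin gene, had 1.32 ± 0.219 TPM. Ngb, the globin of neurons, had 0.315 ± 0.177 TPM from 5 and 12 counts. The sum over these 8 genes was 19.0 and 20.2 TPM in the 2 libraries, against 16227 and 16316 TPM for the 7 red cell globins. Most of the sum over the 8 came from the pseudogene Hbb-bh0, at 11.5 and 13.0 TPM from 6 and 7 counts. Hbb-bh0 is also among the 4 detected, and the 8 include pseudogenes, unlike the protein-coding genes set beside them.

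The region just ahead of each start site is shown because members at very different levels share letters there. The 120 bases before the RefSeq start (GRCm38.p6) were available for 6 of the 7 genes; Hbb-bh1 is named only. Capitals mark, on either strand, the letters CACCC (bound by Klf1 and related factors), CCAAT, the TATA-like TATAA and ATAAA, and GATAA (part of the Gata1 site); TATAA and ATAAA overlap in TATAAA.
Hbb-y (chr7:103853208-103853327, minus strand): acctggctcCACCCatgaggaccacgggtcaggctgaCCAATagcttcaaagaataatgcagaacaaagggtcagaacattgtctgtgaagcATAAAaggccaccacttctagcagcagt
Hbb-bt (chr7:103813924-103814043, minus strand): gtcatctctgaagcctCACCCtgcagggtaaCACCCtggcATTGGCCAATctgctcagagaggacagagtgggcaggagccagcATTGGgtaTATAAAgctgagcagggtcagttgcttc
Hbb-bs (chr7:103827929-103828048, minus strand): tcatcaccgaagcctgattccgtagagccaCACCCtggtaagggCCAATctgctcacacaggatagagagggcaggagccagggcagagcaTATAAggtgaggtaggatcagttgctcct
Hba-x (chr11:32276480-32276599, plus strand): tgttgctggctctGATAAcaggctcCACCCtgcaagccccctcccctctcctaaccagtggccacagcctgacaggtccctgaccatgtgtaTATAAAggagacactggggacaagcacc
Hba-a1 (chr11:32283552-32283671, plus strand): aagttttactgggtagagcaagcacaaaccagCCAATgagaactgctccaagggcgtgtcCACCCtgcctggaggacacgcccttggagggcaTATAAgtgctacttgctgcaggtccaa

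The promoter window of Hba-a2 shared a run of 297 identical bases with that of Hba-a1 and is not printed. CACCC and a TATA-like run stood in all 6 stretches. Counting back from the start site, the TATA-like run began at -28 in Hbb-y, Hbb-bt and Hba-x, at -29 in Hbb-bs, at -27 in Hba-a1 and at -30 in Hba-a2. CCAAT was present in 5 of them, and no CCAAT was found in these letters for Hba-x. CACCC began at -111 in Hbb-y, at -104 and -89 in Hbb-bt, at -90 in Hbb-bs, at -95 in Hba-x, at -60 in Hba-a1 and at -63 in Hba-a2. GATAA lay within the 120 bases for Hba-x alone, at -107. In the other 5 genes it began further from the start site: at -162 in Hbb-y (reverse strand), -204 in Hbb-bt, -209 in Hbb-bs, -182 in Hba-a1 and -185 in Hba-a2. Over the same 120 bases of 32851 RefSeq promoters, 31.7% held CACCC, 21.3% CCAAT, 24.3% TATAA or ATAAA and 10.5% GATAA. Over the full windows of 300 bases 25.4% held GATAA. The match is a description of these stretches, and they do not order the 6 genes by level. Hbb-y, the highest gene, and Hbb-bs, the lowest, each held 1 CACCC, 1 CCAAT and 1 TATA-like run. The cluster neighbour Hbb-bh2, with 0 counts, held none of the marked letters in its 120 bases. Its ATAAA began at -165 and at 13, past the start site, and its GATAA at -166. Whether these letters bear on level was not tested.

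At the level of transcripts, Hba-a1 and Hbb-bs were assigned largely to models that keep an intron. For Hba-a1 the retained-intron model took 68.9% of the gene level in replicate 1 and 72.9% in replicate 2, at 1193 and 1249 TPM. The protein-coding model took 31.1% and 27.1%. For Hba-a2 the matching retained-intron model, also of 494 bases, was given 0 counts in both libraries and the protein-coding model took 100%. For Hbb-bs the retained-intron model took 73.7% and 67.6%. The protein-coding models of Hba-a1 and Hba-a2 differ in their ends: that of Hba-a1 begins 161 bases ahead of the point where that of Hba-a2 begins and stops 16 bases before its end. Of the 100-base windows of the retained-intron model of Hba-a1, 75.7% occurred in another globin gene. The part of this sharing in the assigned levels was not tested.

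Hba-x was assigned mainly to its longer model, with 91.8% in replicate 1 and 93.4% in replicate 2, and the rest to a shorter model, also protein-coding. Counting protein-coding models alone, which was added after these shares had been seen, gave an embryonic share of 31.5% for the alpha-type genes and 93.7% for the beta-type genes, and Hbb-bt then took 95.4% of the adult-type beta level. With the counts of each adult-type pair pooled over a single protein-coding model, also added later, the shares were 26.3% and 93.2%.

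**Figure D4:**
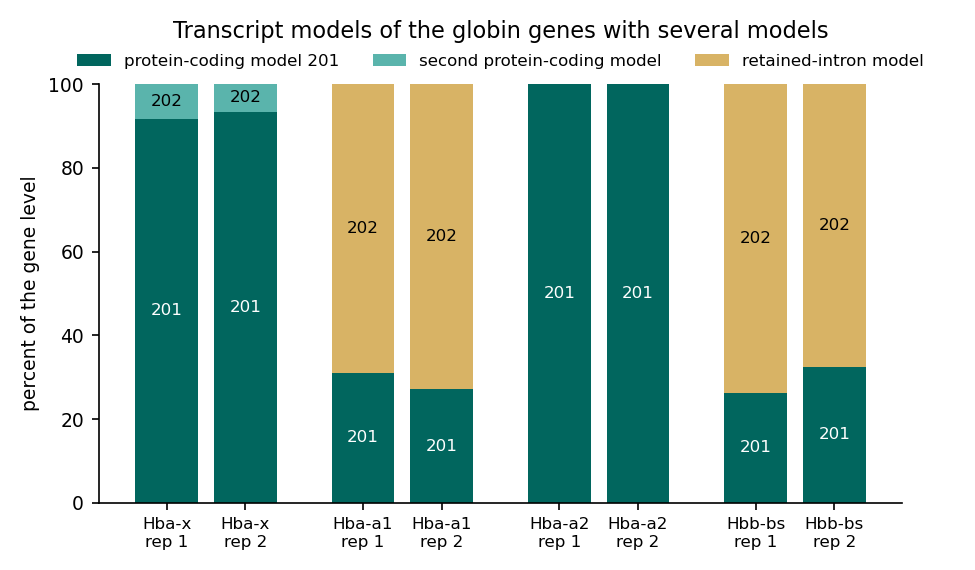
Percent of the gene level assigned to each transcript model, by library, for the 4 globin genes with several models; dark green is the main protein-coding model, light green another protein-coding model and tan a retained-intron model. Retained-intron models hold 68.9% and 72.9% of Hba-a1 and 73.7% and 67.6% of Hbb-bs but 0% of Hba-a2.

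Between the libraries the globins differed little. On expected counts scaled by edgeR's TMM factors, the log2 ratio of replicate 2 to replicate 1 ran from -0.21 for Hbb-bs and -0.11 for Hbb-bt to 0.02 for Hbb-bh1. It was -0.04 for Hbb-y, 0.00 for Hba-x, -0.08 for Hba-a1 and -0.04 for Hba-a2. None of the 7 passed 2-fold, against 4.3% of 17219 genes tested (740 genes), and a set of 7 is too small to differ from that share. The median absolute log2 ratio was 0.04 for the 7 genes and 0.12 over all genes tested. The genes tested needed only 10 counts in either library, whereas each globin had at least 775, so the 2 values come from unlike depths. With 1 library on each side these ratios have no test.

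The label of the tissue was checked against marker genes. All 6 neural tube markers were detected, led by the neuronal tubulin gene Tubb3 at 740.3 ± 86.8 TPM and the Notch target Hes5 at 161 ± 17.1 TPM. All 8 genes listed as defining red cells were detected too. Of all protein-coding genes 59.9% were detected. The red cell list holds Hbb-y and Hba-x themselves, which gave most of its summed level of 8691 and 8757 TPM, so it is not a check apart from the globins. Among its other genes Alas2 was the highest, at 34.0 ± 1.25 TPM. Slc4a1, which encodes the red cell anion exchanger, had 21.2 ± 1.88 TPM. The tissue was taken whole, and which of its cells held the globin transcripts was not tested.

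Of the genes listed for making and protecting hemoglobin, all that were matched were detected, against 59.9% of all protein-coding genes. The 12 heme synthesis genes all passed 1 TPM in both libraries, their median being 33.7 TPM, and most of them serve all cells. Among them were Tmem14c, a mitochondrial porphyrin transporter gene, at 149.6 ± 3.13 TPM, and the enzyme genes Urod at 74.6 ± 3.18 TPM and Alad at 67.3 ± 5.39 TPM. Alas2, the red cell enzyme of the first step, had 34.0 ± 1.25 TPM. All 5 iron genes were detected, among them the ferritin genes Ftl1 at 4236 ± 126.5 TPM and Fth1 at 1001 ± 1.51 TPM and the transferrin receptor gene Tfrc at 52.9 ± 1.22 TPM. Of the assembly and protection list 4 of 5 genes were matched, Ahsp being the gene without a match. All 4 were detected, led by the peroxidase gene Prdx2 at 1051 ± 27.9 TPM and the catalase gene Cat at 99.1 ± 2.40 TPM. Which cells held the transcripts of these lists was not tested. The red cell membrane list, 12 of 12 detected, had its median at 5.25 TPM, with Gypc at 29.4 ± 0.905 TPM above Slc4a1 and Rhd at 11.6 ± 0.877 TPM below it.

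Of 18 transcription factor and RNA-binding protein genes tied to globin genes, 17 were detected, against 59.9% of all protein-coding genes. Their median was 8.76 TPM. The highest were genes that are not limited to red cells: Ldb1, which joins distant enhancers to promoters, at 76.6 ± 1.64 TPM, Igf2bp1 at 64.1 ± 1.99 TPM, Bcl11a, which represses embryonic globins in definitive red cells and is also expressed in neurons, at 56.8 ± 1.03 TPM, and Lmo2 at 22.9 ± 1.41 TPM. Whole tissue does not assign these transcripts to red cells. Klf1, the activator of the adult-type beta genes, had 9.67 ± 0.707 TPM and Gata1, the erythroid GATA factor, had 3.78 ± 0.163 TPM; both were named for their role, after their values had been seen. Zfpm1, a partner of Gata1, stood at 0.93 and 1.12 TPM.

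Markers of the kinds of red cell gave mixed values on both sides. Of 4 genes listed for primitive red cells 2 were detected, Gpx3 at 81.5 ± 7.06 TPM and Cited4 at 5.37 ± 0.396 TPM, and the water channel genes Aqp8 and Aqp3 had 0.995 ± 0.0636 and 0.390 ± 0.113 TPM. Of 6 genes listed for fetal liver or definitive red cells 4 were detected, and 3 of these, Bcl11a, Sox6 and Myb, also stand in the factor list. Car1, a carbonic anhydrase gene of definitive red cells, had 0.155 ± 0.00707 TPM from 3 counts in each library, and Aqp1 had 0.0600 ± 0.0141 TPM from 2 and 3 counts. Car2 had 67.1 ± 0.686 TPM, and other cells express it too. The summed level of the definitive list was 141 and 144 TPM, mostly from Car2 and Bcl11a. That of the primitive list was 83.5 and 93.0 TPM, mostly from Gpx3. In whole tissue, which cells held the transcripts of either list, Gpx3 included, was not tested. The lists differ in size and a few genes carry each sum, so the sums do not compare the 2 kinds of red cell. Of all protein-coding genes 59.9% were detected. The part of either cell type in the adult-type globin level was not tested.

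Marker genes of other blood and vessel cells were also measured, and their detection is read against the 59.9% of all protein-coding genes that were detected. All 6 megakaryocyte and platelet genes were detected, led by Pf4 at 56.6 ± 5.23 TPM, with a summed level of 87.1 and 96.7 TPM. All 5 endothelial genes, summing to 138 and 149 TPM, and all 5 macrophage genes, summing to 53.5 and 51.9 TPM, were detected. Blood progenitor genes were detected in 3 of 4 cases, summing to 68.7 and 76.4 TPM. Neutrophil genes were detected in 3 of 5 cases, a share near that of all protein-coding genes, summing to 14.3 and 13.8 TPM, and 0 of the 5 reached 5 TPM in both libraries. Genes of fetal liver hepatocytes summed to 7.42 and 4.30 TPM, with 2 of 5 detected and Alb at 0.555 ± 0.219 TPM.

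**Figure D5:**
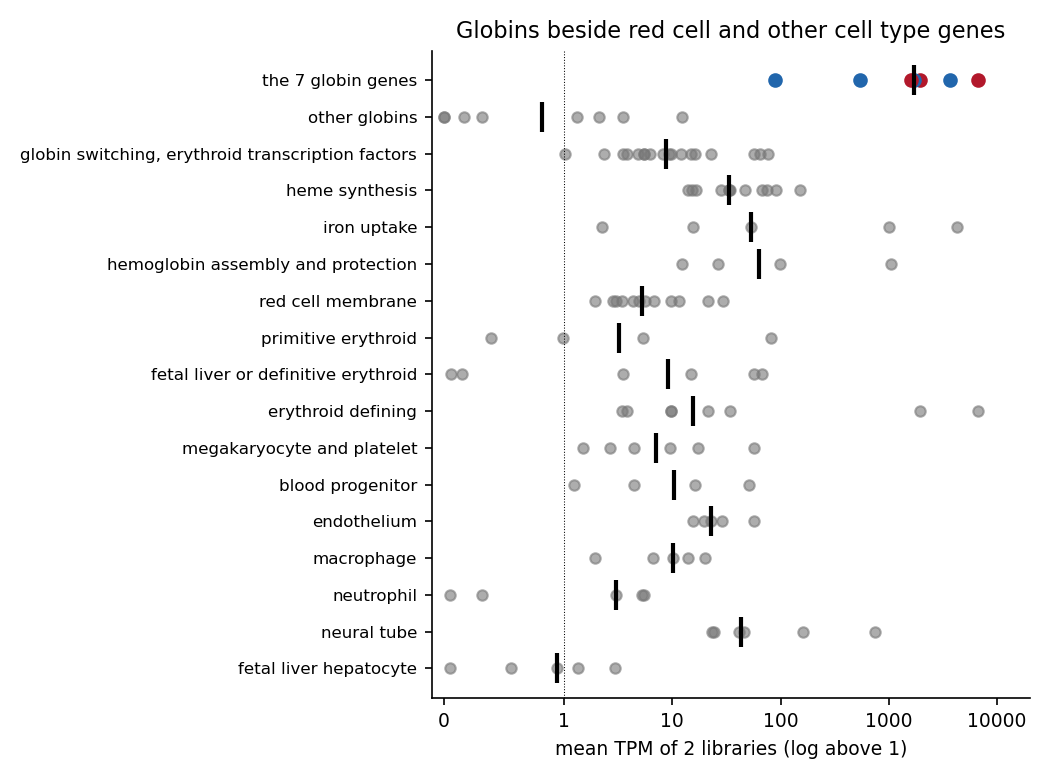
Mean TPM of 2 libraries (log axis above 1, linear below) for the 7 globin genes and for the genes of 16 lists, 1 point per gene, with a bar at each median and a dotted line at 1 TPM; red points are embryonic and blue points adult-type globins. The globins reach from 88.8 to 6724 TPM, and the medians of the lists from 0.815 to 62.8 TPM.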

How the data were processed

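The data were 2 libraries of total RNA from B6NCrl neural tube at embryonic day 11.5, which the labels name biological replicates (109 and 88 embryos); the SD covers the spread between these pools. Per the labels, 10 ng of RNA longer than 200 bases entered each library, with spike-in RNAs and a general SmartSeq protocol. Expected counts, TPM and FPKM were deposited by the authors for genes and transcripts on mm10 with GENCODE M4, per the deposited file descriptions; the aligner and quantifier were not given in the sources used here. The authors' files also hold, as a percent, how much of a gene falls to each transcript. Posterior means, SDs and interval bounds of TPM and counts (a signal-type value) stand beside them, per the file headers. Strandedness was not stated. Expected counts totalled 27638068 and 29166901.

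Gene symbols and positions came from GENCODE M21 on GRCm38; 42462 of 43346 identifiers matched. Left out of the gene set were 97 spike-ins and 26248 entries that carry only a number. The deposited TPM, whose total includes the spike-ins, was not rescaled. The sequences came from GENCODE M21 transcripts and RefSeq promoter windows; model lengths in the files are those of M4. The members and lists were chosen with earlier results of these data known. Of 16 lists, the 4 genes with the highest mean and up to 2 below 1 TPM could be named, and the genes next to Hbb-y in level. Hbb-bh2 and Hbb-bh3, Hbb-bh0 and the Hbq1 genes were described as cluster neighbours, and Ngb as the neuronal globin, outside that rule. A gene that the rule would name is not reported here. Counts were rounded for edgeR 4.0.16 (R 4.3.3), with TMM factors, a prior count of 2, on genes reaching 10 counts in either library; DESeq2 1.42.0 gave alternative size factors. The ratio step was tested on simulated data. The counts of the libraries differed beyond counting noise, with a chi-square per degree of freedom of 5.3 over 16136 genes. Python 3.11.15, pandas 2.3.3 and scipy 1.17.1 did the rest.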

Additional observations from a re-analysis of the deposited data

How the results depend on the processing

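No paired analysis was possible because there is 1 group and no comparison between groups. Under all settings run, the embryonic share of beta-type TPM stayed above, and that of alpha-type TPM below, an even split. The shares below follow the order beta-type, alpha-type and all globins. With counts and no length correction they were 92.6%, 34.9% and 67.7%, the ratio of alpha-type to beta-type was 0.756, the globins took 0.575% of gene counts, Hbb-y to Hbb-bh1 was 4.55 and Hbb-bt took 87.6% of the adult-type beta counts. Per annotated length, the alpha-type share was 27.5%, the share of all globins 63.8%, the ratio 0.802 and the globin total 1.73%. With the leading transcript alone these were 26.6%, 64.8%, 0.746 and 1.78%. With protein-coding transcripts alone, added later, the shares were 93.7%, 31.5% and 68.4%, the ratio 0.684, the globin total 1.71% and Hbb-bt at 95.4%. Under that setting the fold of Hba-a1 over Hbb-bh1 turned from 1.07 to 0.310. With copies pooled and RefSeq ends, added later, the alpha-type share was 33.1%, all globins 65.8%, the ratio 0.824 and the globin total 1.999%. The globin total was 1.79% with posterior mean TPM and 1.63% with spike-ins included. Leaving out a replicate gave 92.8% to 93.3%, 26.0% to 26.5% and 62.8% to 63.3% for the shares. With a filter of 1 count in place of 10, 2200 genes passed 2-fold between the libraries in place of 740. Of the other settings for these values, 22 moved them by less than the spread between the libraries or, for the count of genes, less than 1.5-fold. The cause of each move was not tested beyond the change of length or models itself. Depth limits Hbb-bh2, Hbb-bh3, Hbb-bh0 and Hbq1a, which rest on at most 7 counts, and 2 libraries limit every SD.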
